A study of Homo sapiens with 3 samples.

Results

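The heat shock and endoplasmic reticulum (ER) chaperone genes were read in stratified cultures of an immortalized human corneal epithelial cell line. The group holds 27 genes listed by name (HSP70, HSP90 and HSP110 proteins, small heat shock proteins, the mitochondrial chaperonin, ER lectins and disulfide isomerases, and the regulators of the stress responses) and every gene whose symbol is DNAJA, DNAJB or DNAJC with a number. Genes were taken from probe sets that are annotated to 1 gene only, and every such probe set was kept. In all 54 genes with 95 probe sets were found, of 11963 genes with 19071 probe sets. They comprise 24 of the 27 listed genes and 30 DNAJ genes. *HSPA1A*, *HSPA8* and *HSF2* had no probe set of their own and have no value here.

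The iHCE cells carry the SV40 transformation that immortalized them, were at passages 22 to 23, and were grown in serum-containing medium with insulin, cholera toxin, EGF and dimethylsulfoxide, first submerged on collagen coated inserts and then with air on the apical side. The group has 3 cultures, each from its own batch and each on 1 HG-U133A array, with electrical resistances of 489, 439 and 468 Ω x cm2 in cultures 1, 2 and 3. All 3 cultures had the same treatment and none was stressed by heat or by a drug as a tested condition. The arrays of the corneal tissue the line was set against were not analysed here, so there is no second group, no fold change between groups and no p-value for one.

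Chaperones bind unfolded protein and help it to reach its folded form. HSP70 proteins do so in cycles of ATP hydrolysis that J proteins (the DNAJ genes) start and nucleotide exchange factors end, and HSP90 proteins take over later folding steps. In the cytosol, heat and other proteotoxic stress release the transcription factor *HSF1*, which binds heat shock elements. In the ER, misfolded protein draws the HSP70 protein BiP, encoded by *HSPA5*, away from the sensors IRE1 (*ERN1*), *ATF6* and PERK, and the transcription factors *ATF6* and *XBP1* then raise the ER chaperones through ER stress elements. Corneal epithelium is an exposed surface, where heat shock proteins are known as part of the response to light, drying and wounding.

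The values are log2 expression values, so a difference of 1 is a factor of 2. Genes that belong to other tissues served as a background panel. A probe set counted as above background if all 3 of its values were over the panel's 95th percentile on the same array, at 7.36, 7.07 and 7.29 for cultures 1, 2 and 3. Of the 56 measured panel genes 2 passed this call themselves, *MBP* and *SFTPB*. A gene is given by its probe set of highest mean unless stated. Probe sets differ in affinity, so a higher value of one gene than of another does not show more RNA.

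The arrays correlated at Pearson's r of 0.994 between cultures 2 and 3, 0.988 between 1 and 2, and 0.987 between 1 and 3, over all probe sets. The 24 poly-A control probe sets, which read spiked RNA, had a median of 5.44 on the array of culture 1, against 6.82 and 6.67 in cultures 2 and 3, and the 3' minus 5' difference of *GAPDH* was 1.64 in culture 1, against 1.34 and 1.28 in cultures 2 and 3. Of the corneal epithelial markers 1 of 6 was above background (*TGFBI*, at 11.51 ± 0.13, SD, n = 3), and the defining corneal keratins *KRT3* and *KRT12* and the eye transcription factor *PAX6* were not. All 6 simple epithelial markers and 2 of 5 basal markers passed the call. None of the 5 keratocyte, 3 melanocyte, 3 immune and 4 endothelial markers did. *ALDH1A1*, counted here as a keratocyte marker, is listed by the study among the genes most reduced in the line against corneal epithelium. Its low value therefore does not bear on keratocytes alone.

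Promoters were searched for the elements that the stress factors bind, and the windows around the longer matches are shown. RefSeq promoters of GRCh38.p14, from 250 bases before to 50 bases after each start, were found for 47 of the 54 genes. The ER stress element (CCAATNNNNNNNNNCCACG, read on both strands) was present in 6 of these genes, all of them among the 15 ER genes with a promoter. Counted the same way it was present in 0.0916% of all 27305 genes with a promoter, and in 0.0769% of the 35116 promoters, since a gene can have several. In these windows, printed 5′ to 3′ along the gene, capitals mark the element, which in *CALR* lies on the other strand, and *HSP90B1* holds a further match outside its window.
*HSPA5* at chr9:125241361-125241439, minus strand: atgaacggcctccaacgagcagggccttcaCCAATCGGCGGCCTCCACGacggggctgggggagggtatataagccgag
*HSP90B1* at chr12:103930186-103930264, plus strand: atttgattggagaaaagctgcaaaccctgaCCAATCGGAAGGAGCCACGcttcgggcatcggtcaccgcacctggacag
*CALR* at chr19:12938359-12938432, plus strand: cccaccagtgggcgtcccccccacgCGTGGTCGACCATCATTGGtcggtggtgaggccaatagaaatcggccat
*CANX* at chr5:179698748-179698826, plus strand: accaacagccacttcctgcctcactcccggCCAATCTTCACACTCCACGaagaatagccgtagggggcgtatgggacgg
*PDIA6* at chr2:10812823-10812901, minus strand: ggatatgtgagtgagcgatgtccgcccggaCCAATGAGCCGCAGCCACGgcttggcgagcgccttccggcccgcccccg
*XBP1* at chr22:28800573-28800651, minus strand: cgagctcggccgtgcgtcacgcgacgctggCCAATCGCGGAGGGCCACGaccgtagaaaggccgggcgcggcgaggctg

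The element began 66 bases before the annotated start in *HSPA5* and 52 bases before it in *XBP1*. A second form of the ER stress element (ATTGGNCCACG, both strands) was found in 0 of the 47 genes and in 0.0541% of all promoters.

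The heat shock element of 3 units in alternating directions (GAANNTTCNNGAA or TTCNNGAANNTTC, which are each other's reverse strand) was present in 6 genes, 5 of the 24 cytosolic and 1 of the 6 mitochondrial genes with a promoter, and in none of the 15 ER genes. It was present in 0.608% of all genes and in 0.49% of all promoters. Capitals mark the element in these windows. *HSP90AB1* holds it at 2 places, and in *HSPD1* 2 matches overlap in 1 stretch.
*HSP90AA1* at chr14:102087090-102087162, minus strand: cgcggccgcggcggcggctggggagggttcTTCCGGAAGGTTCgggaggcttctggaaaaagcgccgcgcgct
*HSP90AB1* at chr6:44247748-44247873, plus strand: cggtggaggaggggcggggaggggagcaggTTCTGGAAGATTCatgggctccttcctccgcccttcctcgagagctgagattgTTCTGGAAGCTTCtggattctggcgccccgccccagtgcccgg
*DNAJA1* at chr9:33025246-33025318, plus strand: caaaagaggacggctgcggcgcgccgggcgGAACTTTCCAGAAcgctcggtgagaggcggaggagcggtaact
*HSPD1* at chr2:197500038-197500090, minus strand: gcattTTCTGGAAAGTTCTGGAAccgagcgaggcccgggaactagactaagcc
*HSPA6* at chr1:161524436-161524508, plus strand: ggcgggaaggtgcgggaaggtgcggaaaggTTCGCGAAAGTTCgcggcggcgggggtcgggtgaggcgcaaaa
*DNAJB6* at chr7:157336843-157336915, plus strand: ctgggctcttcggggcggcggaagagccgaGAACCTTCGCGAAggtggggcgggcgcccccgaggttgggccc

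With only 2 units (GAANNTTC or TTCNNGAA, a form contained in the longer element) a match was found in 15 of the 47 genes, beside 16.2% of all genes and 13.5% of all promoters. These were 11 cytosolic and 3 mitochondrial genes and the ER gene *CANX*. The ER stress element or the 3-unit heat shock element was found in 12 of the 47 genes and neither of them in 35, and whether the matches differ between compartments was not tested. Among the partner genes read further on, 72 had a promoter. The 3-unit element was also present in *SERPINH1*, a collagen chaperone of the ER, and in the HSP90 co-chaperone gene *CHORDC1*. The ER stress element was present in the partner genes *CRELD2* and *ERO1B*, and its second form in *HERPUD1*, *HYOU1* and *SDF2L1*. A match is a run of letters and not a measured binding site, and a gene without one was searched in these windows only.

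At the level of genes 35 of the 54 (64.8%) were above background on all 3 arrays, beside 41.7% of all genes. A further 5 genes passed on 1 or 2 arrays and 14 on none. Of the 95 probe sets 52 (54.7%) passed, beside 33.3% of all probe sets. limma was run one-sided on the mean of each probe set less the threshold, with Benjamini-Hochberg adjustment over all probe sets (adjusted p under 0.05). It called 32.2% of all probe sets and 52 of the 95, the same 52 that the rule called. Its standard error was the same at each of the 95, 0.146. The call thus amounted to a cut on the mean of the same values and gives no independent support. The median level of the 54 genes was 8.15, beside 6.98 over all genes, which describes these probe sets and not amounts of RNA. The highest value of the panel was that of *MBP* on each array, at 8.34, 9.26 and 9.20 in cultures 1, 2 and 3. With it as threshold 16 genes passed: *HSP90AA1*, *HSP90AB1*, *HSPA4*, *HSPB1*, *DNAJA1*, *DNAJB1*, *DNAJC8*, *DNAJC9*, *HSPA9*, *HSPD1*, *HSPE1*, *DNAJA3*, *HSPA5*, *CANX*, *PDIA3* and *PDIA6*. With the median of the panel plus 3 scaled MADs 23 genes passed. The shares of all genes at these thresholds were not computed.

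By compartment 19 of 28 cytosolic and nuclear genes, 6 of 6 mitochondrial genes and 10 of 17 ER genes were above background, and 0 of 3 J proteins without an assigned compartment. The compartments were taken from a list drawn up for this report, and the shares depend on where those 3 are placed. At the highest panel value the counts were 8 cytosolic, 4 mitochondrial and 4 ER genes, and at its 90th percentile 19, 6 and 13, so that the larger share of the cytosol over the ER did not hold at that threshold. Of the 7 other ER genes 4 passed on 1 or 2 arrays and 3 on none, while of the other cytosolic genes 1 passed on 1 array and 8 on none.

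**Figure D1:**
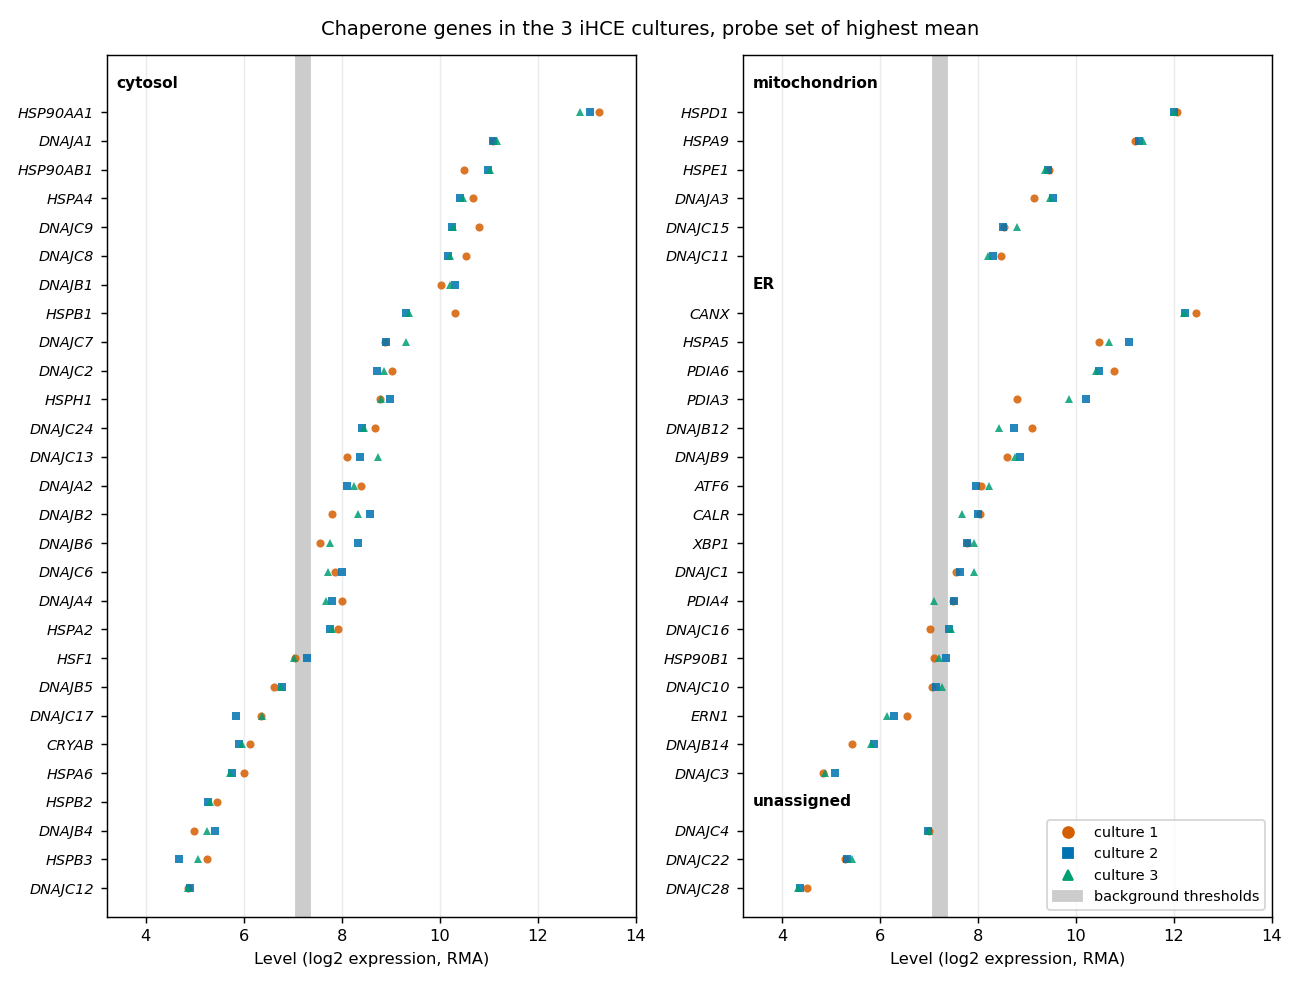
Log2 expression (x axis, RMA) of each of the 54 genes at its probe set of highest mean, ordered by mean within its compartment, with 1 point per culture (circle, square and triangle for cultures 1, 2 and 3) and the range of the 3 background thresholds, 7.07 to 7.36, in grey. All 6 mitochondrial genes lie right of the grey band, while *HSPA6* and most small heat shock proteins lie left of it.

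Both cytosolic HSP90 genes were far above the threshold. *HSP90AA1*, the stress-inducible form, read 13.26, 13.06 and 12.85 in cultures 1, 2 and 3 (13.06 ± 0.20, SD, n = 3), and its 3 other probe sets had means of 11.87, 11.33 and 10.69. *HSP90AB1*, the constitutive form, read 10.50, 10.99 and 11.02 (10.84 ± 0.29), with culture 1 the lowest, and its second probe set averaged 8.69 ± 0.08.

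HSP70 proteins of the cytosol gave a divided picture at the 2 genes of the group that could be read. Of related genes read among the partners, *HSPA14* (9.17 ± 0.02) passed on all arrays and *HSPA12A* (6.34 ± 0.05) on none. *HSPA2*, an HSP70 gene best known from testis, read 7.93, 7.77 and 7.79 in cultures 1, 2 and 3, above background in each and with a narrow spread (7.83 ± 0.09). *HSPA6*, which human cells express almost only under severe stress, read 6.01, 5.76 and 5.72 at one probe set and 5.83, 5.72 and 5.57 at the other, below the threshold on every array. Its promoter is one of those with a 3-unit heat shock element, 74 bases before the start.

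HSP110 proteins release ADP from HSP70, and the 2 HSP110 genes of the group were both above background. The related gene *HSPA4L*, read among the partners, passed on no array. *HSPA4* read 10.67, 10.41 and 10.47 in cultures 1, 2 and 3 (10.52 ± 0.14), and a second probe set averaged 8.21 ± 0.17. Its other 2 probe sets averaged 7.07 and 5.88 and were not above background on any array, a distance of 4.64 between the brightest and the dimmest set of 1 gene. *HSPH1* read 8.78, 8.99 and 8.80 (8.86 ± 0.11), while its second probe set read 5.97, 6.91 and 6.81 and did not pass on any array.

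Of the 4 small heat shock proteins in the group, which hold unfolded protein in a soluble state without ATP, only *HSPB1* (HSP27) was above background. It read 10.30 in culture 1, 9.31 in culture 2 and 9.37 in culture 3 (9.66 ± 0.56). Culture 1 was thus 0.96 above the mean of the other two, the furthest that culture 1 lay above them at any of the 95 probe sets. *CRYAB*, alphaB-crystallin, which is known from lens and muscle, read 6.12, 5.90 and 5.95. The study lists it among the genes most reduced in the iHCE cells against corneal tissue, so it is not a gene foreign to that tissue. The muscle genes *HSPB2* and *HSPB3* read 5.45, 5.26 and 5.30, and 5.24, 4.68 and 5.07. None of these 3 passed on any array, and culture 1 was the highest of the cultures at all 4. The small heat shock genes *HSPB6*, *HSPB7* and *HSPB8*, read among the partner genes, averaged 6.26, 5.93 and 6.54 and passed on no array. Culture 1 was the highest at *HSPB6* and *HSPB8* but not at *HSPB7*.

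*HSF1*, the main transcription factor of the heat shock response, read 7.04, 7.30 and 7.03 in cultures 1, 2 and 3, above the threshold on the array of culture 2 only, and its second probe set averaged 5.55 ± 0.15. HSF1 is known to be controlled mainly as a protein.

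All 3 mitochondrial chaperones listed by name were above background and were steady at their brightest probe sets. *HSPD1* (HSP60), the ring of the mitochondrial chaperonin, read 12.06, 11.99 and 12.01 in cultures 1, 2 and 3 (12.02 ± 0.04). *HSPE1* (HSP10), its lid, read 9.46, 9.43 and 9.36 (9.42 ± 0.05). *HSPA9* (mortalin), the HSP70 protein that also drives protein import, read 11.21, 11.28 and 11.36 (11.28 ± 0.08). The SDs of 0.04, 0.05 and 0.08 compare with a median SD of 0.143 over all probe sets. The dimmer probe sets of the same genes moved more, since *HSPD1* read 8.16, 9.17 and 9.04 and *HSPA9* read 9.50, 9.97 and 9.87 at their second sets, with culture 1 the lowest at each. Another *HSPA9* probe set read 7.26, 7.17 and 7.48 and passed on 2 arrays.

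In the ER the HSP70 protein BiP, the master chaperone of that compartment, was well above background. *HSPA5* read 10.47, 11.09 and 10.67 in cultures 1, 2 and 3 (10.74 ± 0.32), with culture 2 the highest and an SD above the 90th percentile of all probe sets, 0.309. *HSP90B1* (GRP94), the HSP90 protein of the ER, read 7.10, 7.34 and 7.21, above the threshold in culture 2 only, and its second probe set averaged 6.22 ± 0.17. The names of both *HSP90B1* probe sets end in _x_at, a type that can bind related transcripts, so its level is uncertain. The promoters of *HSPA5* and *HSP90B1* both hold the ER stress element.

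The lectin chaperones retain glycoproteins in the ER until they have folded. *CANX*, which is anchored in the membrane, read 12.44, 12.22 and 12.20 in cultures 1, 2 and 3 (12.29 ± 0.14). *CALR*, its soluble relative, read 8.03, 7.99 and 7.68 (7.90 ± 0.19) at its brightest probe set. Its 2 other sets averaged 5.98 and 5.70 and passed on no array.

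The protein disulfide isomerases form and reshuffle disulfide bonds. *PDIA3*, which works with the lectins, read 8.79 in culture 1, 10.20 in culture 2 and 9.85 in culture 3 (9.61 ± 0.73), the largest SD of the 95 probe sets. It has 1 probe set, so no second reading exists within the gene. *PDIA6* read 10.78, 10.46 and 10.41 (10.55 ± 0.20), and all of its 4 probe sets passed. *PDIA4* read 7.49, 7.51 and 7.11 at one probe set and 7.33, 7.46 and 7.14 at the other, above the threshold on 2 arrays and on 1 array.

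Among the regulators of the unfolded protein response, *XBP1* read 7.77, 7.78 and 7.92 in cultures 1, 2 and 3 (7.82 ± 0.08) and *ATF6* read 8.06, 7.95 and 8.22 (8.07 ± 0.14), both above background. A second *ATF6* probe set averaged 6.19 ± 0.20 and passed on no array. *ERN1*, which encodes the sensor that splices *XBP1* mRNA, read 6.55, 6.29 and 6.14 and did not pass on any array. The *XBP1* probe set was not annotated as specific to the spliced mRNA.

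The DNAJ genes encode J proteins, which bring substrates to HSP70 and set off its ATPase. Of the 30 with a probe set 19 were above background, 13 of 17 in the cytosol and nucleus, 3 of 3 in mitochondria and 3 of 7 in the ER. The brightest was *DNAJA1*, a general partner of cytosolic HSP70, at 11.09, 11.09 and 11.16 in cultures 1, 2 and 3 (11.11 ± 0.04), and its second probe set was steadier still (10.29 ± 0.02). The stress-inducible *DNAJB1* (HSP40) read 10.03, 10.32 and 10.22 (10.19 ± 0.15). *DNAJC9*, a nuclear histone co-chaperone, read 10.79, 10.24 and 10.27, and *DNAJC8*, a spliceosomal protein, 10.53, 10.17 and 10.21, with culture 1 the highest at both. *DNAJC7*, which binds HSP70 and HSP90, read 8.87, 8.91 and 9.32.

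The widest range among cytosolic DNAJ genes at their brightest probe set was that of *DNAJB2*, a J protein best known from neurons, at 7.80, 8.58 and 8.32 in cultures 1, 2 and 3. *DNAJB6*, a suppressor of protein aggregation, followed closely at 7.56, 8.33 and 7.75. Their ranges of 0.78 and 0.77 cannot be set apart with 3 cultures. The other cytosolic DNAJ genes above background were *DNAJA2*, *DNAJA4*, *DNAJC2*, *DNAJC6*, *DNAJC13* and *DNAJC24*, at means between 7.84 and 8.87. *DNAJB4*, *DNAJB5*, *DNAJC12* and *DNAJC17* passed on no array.

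In mitochondria *DNAJA3* (TID1), a partner of *HSPA9*, read 9.14, 9.52 and 9.47 in cultures 1, 2 and 3, and was both the brightest and the most variable of the 3 J proteins there. *DNAJC11*, a protein of the cristae, averaged 8.33 ± 0.14 and *DNAJC15*, of the inner membrane, 8.61 ± 0.16. In the ER the brightest and most variable was *DNAJB12*, a membrane J protein of ER-associated degradation, at 9.09, 8.74 and 8.42, with a second probe set at 7.85 ± 0.12 and 2 more, at 6.93 and 4.63, that did not pass. *DNAJB9* (ERdj4), which is known to hold IRE1 inactive together with BiP, read 8.59, 8.87 and 8.75, and its second probe set averaged 4.98. *DNAJC1* averaged 7.70 ± 0.19. *DNAJC16* passed on 2 arrays and *DNAJC10* on 1, while *DNAJB14* and *DNAJC3*, at means of 5.71 and 4.94, passed on none, nor did the unassigned *DNAJC4*, *DNAJC22* and *DNAJC28*.

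The cultures differed from each other by little at most of these genes. The median SD was 0.155 over the 95 probe sets, beside 0.143 over all probe sets, and 0.186 over the 52 probe sets above background. By compartment it was 0.154 in the cytosol, 0.162 in mitochondria and 0.182 in the ER. An SD above 0.309, the 90th percentile over all probe sets, was found at 15 of the 95. Leaving out culture 1 brought the median SD of the 95 down to 0.0875, while without culture 2 it was 0.148 and without culture 3 it was 0.172. Neither these values nor the median SD above background were computed over all probe sets. They therefore cannot be called particular to chaperone genes. Cultures 2 and 3 lay 0.5 or more apart at 3 of the 95 probe sets, of *DNAJB6*, *DNAJC17* and *CALR*, the last 2 not above background, beside 2.93% of all probe sets.

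Culture 1 lay below both other cultures at 43 of the 95 probe sets, beside 36.4% of all probe sets, and above both at 35, beside 38.4%. Its median difference from the mean of cultures 2 and 3 was -0.04 over the 95 probe sets and 0.01 over all. In the ER 20 of 34 probe sets had culture 1 lowest and 9 had it highest, with a median difference of -0.16. In the cytosol 18 of 47 had it lowest and 21 highest, with a median of 0.00, and in mitochondria 4 of 9 had it lowest and 3 highest, with a median of -0.11. In bulk RNA of a culture, fewer cells of a kind and less RNA per cell cannot be told apart, and with 1 culture on one side no test was made.

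**Figure D2:**
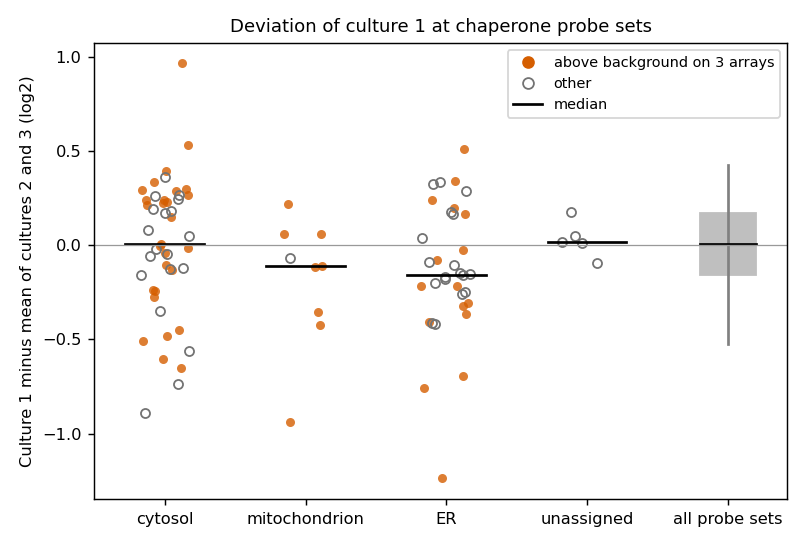
Culture 1 minus the mean of cultures 2 and 3 (y axis, log2) at each of the 95 probe sets by compartment, filled where above background on all 3 arrays, with the median as a black line. On the right the box holds the 25th to 75th percentile and the line the 5th to 95th percentile over all 19071 probe sets. The lowest point is *PDIA3* at -1.24 and the highest is *HSPB1* at 0.96.

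Differences of 0.5 or more downward in culture 1 occurred at 10 of the 95 probe sets, beside 5.42% of all probe sets, and upward at 3, beside 2.78%. The 10 were *PDIA3* (-1.24), the second set of *HSPD1* (-0.94), a dim set of *HSPH1* (-0.89), the dimmest set of *CANX* (-0.76), a dim set of *DNAJC7* (-0.74), 1 set of *PDIA6* (-0.69), *DNAJB2* (-0.65), the dimmest set of *HSP90AA1* (-0.60), a dim set of *HSPA4* (-0.56) and *HSP90AB1* (-0.51). Those of *HSPH1*, *DNAJC7* and *HSPA4* were not above background on any array. The 3 upward ones were *HSPB1* (0.96), *DNAJC9* (0.53) and *DNAJB12* (0.51).

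On the same arrays the spiked poly-A controls read lower in culture 1 at 24 of 24 probe sets, and the simple epithelial keratin *KRT7* read 11.08 in culture 1, against 9.90 and 10.27 in cultures 2 and 3. The median difference of culture 1 over the 6 simple epithelial markers was 0.24. The part of these in the chaperone values was not tested.

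Probe sets of 1 gene could part ways. Of the 27 chaperone genes with several probe sets 10 had them on both sides of the threshold, namely *ATF6*, *CALR*, *DNAJB12*, *DNAJB9*, *DNAJC6*, *DNAJC7*, *DNAJC8*, *HSPA4*, *HSPA9* and *HSPH1*. The share over all genes with several probe sets was not computed, so this count cannot be called particular to chaperone genes. Of the 12 chaperone genes with several probe sets above background 5 had differences of culture 1 that lay 0.5 or more apart, beside 21.6% of the 1054 genes of that kind. The widest was *PDIA6*, where culture 1 was 0.34 above the mean of cultures 2 and 3 at the brightest probe set and at -0.69 from it at another. *PDIA6* read 10.78, 10.46 and 10.41 in cultures 1, 2 and 3 at the first and 9.45, 10.19 and 10.10 at the other.

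*HSPD1*, *HSP90AA1* and *CANX* gave the same order. *HSP90AA1* had culture 1 highest at 3 probe sets and lowest at the dimmest one, which read 10.28, 11.01 and 10.77 in cultures 1, 2 and 3. *CANX* had culture 1 highest at its brightest set and lowest at the other 2, which read 9.96, 10.29 and 10.27, and 7.89, 8.65 and 8.64. At all 5 genes, *HSPA4* included, the brightest probe set had culture 1 above the mean of the others and the dimmest set above background had it below, so no single sign holds for culture 1 at these genes. The position of each probe set along its transcript was not used here.

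**Figure D3:**
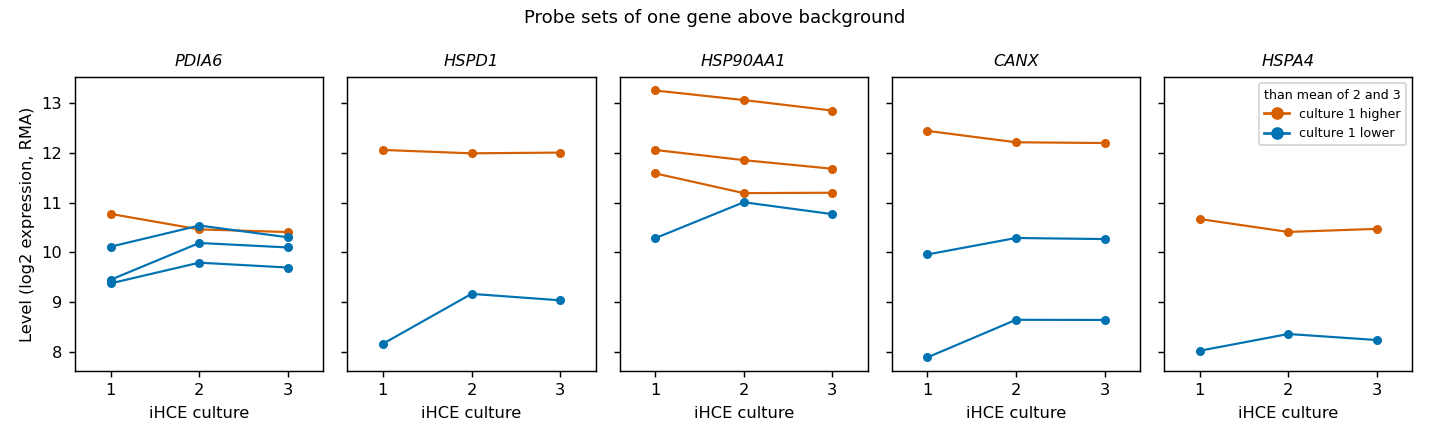
Log2 expression (y axis, RMA) in cultures 1, 2 and 3 (x axis) at each probe set above background of the 5 genes whose probe sets disagreed on culture 1 by 0.5 or more, with 1 line per probe set, orange where culture 1 is above the mean of cultures 2 and 3 and blue where it is below. Each gene has lines of both colours, and the brightest set is orange in all 5.

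Probe sets whose name ends in _x_at or _s_at can bind related transcripts. Without them 44 probe sets of 36 genes remained, and the threshold was taken anew from the panel's remaining probe sets. At that threshold 19 probe sets and 19 genes passed, 10 of 19 in the cytosol, 2 of 2 in mitochondria and 7 of 12 in the ER. These include the *HSPA9* set that passed on only 2 arrays at the main threshold, so the counts are not at the threshold used elsewhere. Among others, *HSPB1*, *HSPA2*, *HSPE1*, *HSPD1*, *HSP90B1*, *HSPA9* (at its bright sets), *CANX* and the bright set of *HSPA4* are read by such probe sets only.

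The partners of these chaperones were read from 5 lists. The first holds cytosolic co-chaperones, which steer HSP70 and HSP90, and also further heat shock genes that are not co-chaperones of this kind. Of its 23 measured genes 14 were above background. The brightest were *PTGES3*, the HSP90 co-chaperone p23 (11.86 ± 0.10), *ST13*, an HSP70-binding protein (11.08 ± 0.08), and *BAG1*, a nucleotide exchange factor (10.01 ± 0.10). Of the further heat shock genes in it *HSPA14* passed. *HSF4* passed on 1 array, and *HSPA12A*, *HSPA4L*, *HSPB6*, *HSPB7* and *HSPB8* on none, which lowers the share of this list. *BAG2*, *BAG4* and *FKBP5* passed on no array, at means of 5.56, 4.16 and 5.35. Of the cytosolic chaperonin CCT, which folds actin and tubulin, and its helper prefoldin, 12 of 13 genes passed, with *CCT8* (12.16 ± 0.11), *CCT4* (11.87 ± 0.15) and *CCT2* (11.21 ± 0.04) the brightest. The exception was *CCT6B*, a testis form, at 7.35 ± 0.05 and above on 2 arrays. Of mitochondrial protein quality control 9 of 10 passed, among them the proteases *YME1L1* (10.28 ± 0.15) and *AFG3L2* (9.85 ± 0.30) and the HSP90 protein *TRAP1* (10.23 ± 0.12). The exception there was CLPX, at 7.18 ± 0.25 and above on 2 arrays.

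Of the ER folding and quality control genes 16 of 21 were above background, with the translocon subunit *SEC61B* (11.51 ± 0.24), the disulfide isomerase *P4HB* (10.94 ± 0.02) and *ERP29* (10.76 ± 0.40) the brightest. The oxidases *ERO1A* and *ERO1B* averaged 7.22 ± 0.32 and 4.79 ± 0.17, above the threshold on 2 arrays and on none, and *HSPA13* read 7.07 in culture 1, 7.82 in culture 2 and 7.90 in culture 3 and passed on 2. Of the unfolded protein response and ER-associated degradation 12 of 16 passed. *ATF4*, the transcription factor translated when PERK is active, read 11.90, 11.94 and 11.79 in cultures 1, 2 and 3. *TRIB3*, a pseudokinase gene that *ATF4* is known to induce, read 10.41, 9.71 and 10.79, and *HERPUD1*, a degradation factor of the ER membrane, 10.18, 9.97 and 9.95. *EDEM2* passed on 1 array, while *EDEM3* and *EIF2AK3*, the gene of PERK itself, averaged 4.91 ± 0.11 and 6.78 ± 0.22 and passed on none. The shares of these 5 lists and of the chaperones stand beside 41.7% of all genes, and the genes of a list are no replicates of each other.

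**Figure D4:**
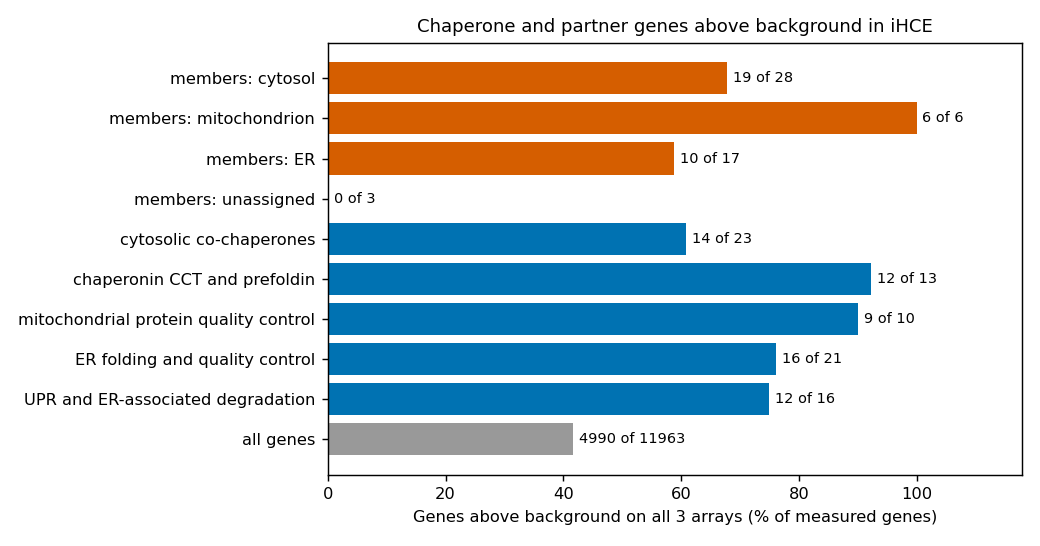
Share of measured genes above background on all 3 arrays (x axis, %) for the chaperone genes by compartment (orange), the 5 partner lists (blue) and all genes (grey), with the counts beside each bar. The co-chaperone bar also counts *HSPA14*, *HSPA12A*, *HSPA4L*, *HSPB6*, *HSPB7*, *HSPB8* and *HSF4*. The bars reach from 0 of 3 for the unassigned J proteins to 6 of 6 for the mitochondrial chaperones, with 4990 of 11963 for all genes.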

How the data were processed

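RNA of 3 independent iHCE culture batches was hybridized to HG-U133A arrays, 1 per batch. Per the submitters' processing notes the authors ran RMA in R 2.8.0. The deposited table gives log2 values of 22283 probe sets. RMA evens out total brightness between arrays and compresses low values. The study's methods describe iHCE and tissue arrays normalized together, for genes of a custom probe annotation. Whether the deposited probe set table comes from that run is not stated, and the tissue arrays were not analysed here. Of the probe sets 19071 named 1 gene, 1043 several and 2169 none in the platform annotation. No symbol changed through the RefSeq gene table of GRCh38.p14, and 12 probe sets of 1 gene had no entry there.

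Levels were summarised with Python 3.11.15, pandas 2.3.3 and numpy 2.4.6, drawn with matplotlib 3.10.9 and, as an alternative, tested with limma 3.58.1 in R 4.3.3. Both calls were tested on simulated data. With 1 group there was no contrast to test. Precision is limited by the 3 arrays, whose SD holds culture and technical variation.

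The genes, the lists, the panel of 66 genes (56 measured) and the alternatives were chosen with earlier results of these data known. Named are all listed genes, the brightest and the most variable DNAJ gene of each compartment and other DNAJ genes, and of each partner list the 3 brightest that passed with at most 3 that did not, by alphabet. Also named are partner genes with an ER stress element or a 3-unit heat shock element, and the further heat shock genes of the co-chaperone list. The alternatives were 3 other thresholds, the mean over probe sets, no _x_at or _s_at sets, quantile normalization, only probe sets above background, each culture left out, and, added after the data were seen, the panel without *MBP*. Protein sequences were not analysed here.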

Additional observations from a re-analysis of the deposited data

Results flagged for a closer look

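Outside the probe sets described, 10 probe sets list a chaperone gene of the group together with other genes. Of these 7 were above background on all 3 arrays, a signal that was left out of every count because it cannot be given to 1 gene. Their means lay between 7.20 and 12.64 and their SDs over the 3 cultures between 0.07 and 0.32. *HSPA1A* and *HSPA8*, the stress-inducible and the constitutive HSP70 gene of the cytosol, are annotated only on such probe sets, so the main cytosolic HSP70 genes have no value of their own in these data.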

How the results depend on the processing

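Counts above background depended on the threshold. For the alternatives the share over all genes was not computed, and only for limma is the share over all probe sets given. With the highest panel value 26 probe sets and 16 genes passed (8 cytosolic, 4 ER), and with the median plus 3 scaled MADs 34 and 23 (12 cytosolic, 6 ER), against 52 and 35 (19 and 10) as reported. With the 90th percentile they were 58 and 38 (19 cytosolic, 6 mitochondrial, 13 ER). Without _x_at and _s_at probe sets fewer sets were left to count, and the threshold was taken anew from the panel's remaining sets. There 19 probe sets and 19 genes passed (10 cytosolic, 2 mitochondrial), and culture 1 was lowest at 18 and highest at 15 of 44. Over the 52 probe sets above background culture 1 was lowest at 26 and highest at 22. Leaving out 1 culture gave 52 to 54 probe sets, 35 to 36 genes, 19 cytosolic, 6 mitochondrial and 10 to 11 ER genes, and a median SD of 0.0875 to 0.172. The mean over probe sets gave 29 genes. Quantile normalization and limma gave 52 and 35, and the panel without *MBP* 53 and 35. The background thresholds rest on 56 genes, and values near them, such as those of *HSP90B1*, *PDIA4*, *HSF1* and *DNAJC10*, can fall on either side. No paired analysis was possible because the 3 cultures form 1 group.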
